A study of Mus musculus with 16 samples.

Results

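The data described here are the RNA profiles of cortical endothelial cells from mice that carry the 16p11.2 deletion, at postnatal day 50 (P50) against postnatal day 14 (P14). All 4 df/+ libraries of each age in the raw count table were taken, 8 of the 16 libraries of the series, and the change with age was described over the 15368 genes abundant enough to be tested. Every mouse was 16p11.2 df/+: 1 copy was missing of the stretch of mouse chromosome 7 homologous to human 16p11.2, where deletions are associated with autism. The deletion was inherited from df/+ fathers on a mixed B6/129 background, so all cells of the animal carried it and no effect can be assigned to the endothelium alone. Wild-type (WT) littermates at the same ages, 4 libraries each, entered the fit and served as the reference for the age effect. Cells were taken from the cortex with beads against CD31 after myelin and CD45-positive cells had been depleted, and were lysed without culture. Each library held the pooled cells of 2 mice, and the labels describe each pool as a biological replicate. The labels do not state the sex of the animals.

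Endothelial cells line the vessels of the brain. In the first postnatal weeks they still divide, migrate as tip cells guided by vascular endothelial growth factor (VEGF), and lay down a basement membrane of laminins, type IV collagens and nidogens. Sprouting then ceases, the cells become quiescent, and the blood-brain barrier is maintained by tight junctions, a low rate of transcytosis and carriers for glucose, amino acids and other solutes. Wnt signals sustain the barrier, Notch signals accompany arterial identity, and blood flow induces factors such as Klf2 and Klf4.

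Total counts of the 8 df/+ libraries were 8658792 to 18737781. Levels are given as CPM, read counts scaled to the normalised size of each library, for replicates 1 to 4 of an age in that order. Log2 fold changes are P50 minus P14, and p-values are from edgeR's quasi-likelihood F test, adjusted over all tested genes. The standard error (SE) beside a change is approximate, the absolute change divided by the square root of the test's F value. Calls used a threshold of 0.05 on the adjusted p. The endothelial label was checked against Pecam1, which encodes CD31. Its level was 1400, 1270, 1330 and 1350 CPM at P14 and 1390, 1170, 1590 and 1670 CPM at P50. Cdh5, the cadherin of endothelial junctions, stood at 1150 ± 53.6 CPM (SD, n = 4) at P14 and 971 ± 356 CPM at P50. Neither gene was called, and the summed level of the endothelial identity list was 28500 to 31500 CPM at P14 and 31900 to 40600 CPM at P50.

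The P50 libraries were not uniform. Replicate 2 at P50 had the lowest share of mapped reads of the series, 94.7%, against 97.1% to 98.1% in the other 7 df/+ libraries. It also held more reads from short transcripts: its level relative to the median of its age fell by 0.306 log2 units per doubling of transcript length, against slopes of -0.115 to 0.136 in the other P50 df/+ libraries. In a principal component analysis of the 8 libraries the leading component held 60.1% of the variance. Scores were -64.1 to -48.5 at P14, and at P50 they were 60.1 for replicate 1, 151 for replicate 2, 4.62 for replicate 3 and 3.10 for replicate 4. Results that rest on replicate 2 are therefore also given without it. RNA of other cells was present and changed with age. The summed level of ependymal and choroid plexus markers was 23 to 3180 CPM at P14 and 2230 to 43400 CPM at P50, and that of oligodendrocyte markers was 2590 to 6880 CPM at P14 and 11300 to 24700 CPM at P50. In such bulk samples fewer cells of a type and less RNA per cell cannot be told apart. The library numbers in the labels were 9 to 12 for P14 df/+ and 2, 4, 5 and 6 for P50 df/+, so number range and age cannot be told apart within df/+. In WT the order was reversed, with numbers 1, 3, 7 and 8 at P14 and 13 to 16 at P50.

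Between P14 and P50, 2561 genes rose in df/+ endothelial preparations and 1951 fell, which is 16.7% and 12.7% of the tested genes. The change was at least 2-fold for 1430 of the genes that rose and 970 of those that fell, and at least 4-fold for 494 and 419. For 2082 genes (13.5%) all 4 P50 libraries lay above all 4 P14 libraries, and for 2331 genes (15.2%) they lay below. The median log2 fold change of all tested genes was 0.03. Of the calls, 1468 of the rises and 1358 of the falls held in every fit that left out 1 of the 16 libraries. A fit to the 8 df/+ libraries alone called 1267 genes higher and 1150 lower.

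**Figure D1:**
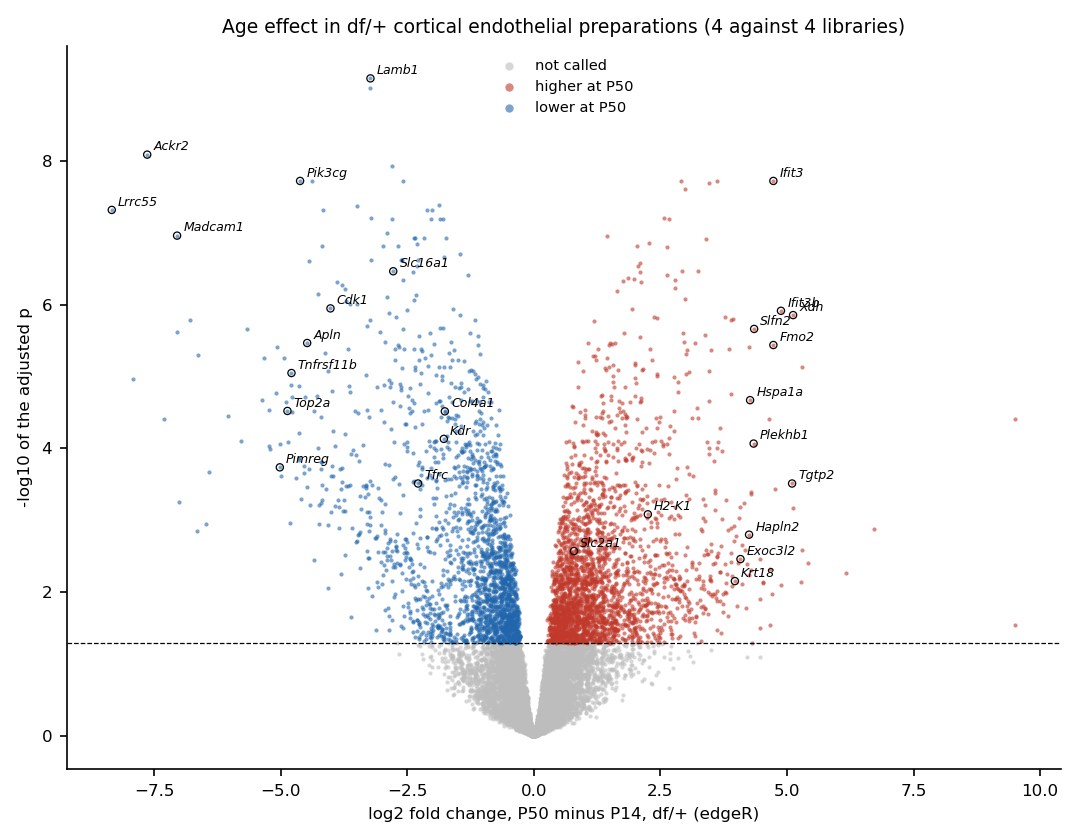
The plot of effect against evidence shows, for each of the 15368 tested genes, the log2 fold change (P50 minus P14, df/+) on the horizontal axis and -log10 of the adjusted p on the vertical axis, with the threshold of 0.05 dashed, 2561 genes that rose in red and 1951 that fell in blue. Circles mark genes named in the text, with Lamb1 highest among those that fell and Ifit3 highest among the labelled genes that rose.

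The 12 genes that fell most were ranked among those with at least 10 CPM at one age and no overlap between the ages. Lrrc55 (chromosome 2, 85162334 to 85197197, GRCm38), an auxiliary subunit of potassium channels, was at 81.0, 72.0, 61.4 and 137 CPM at P14. At P50 it was at 0.338, 0, 0.174 and 0.484 CPM, a log2 fold change of -8.34 ± 0.525 (adjusted p = 4.83e-08). Gm13713 on the other strand overlaps it, with 521 reads in the 8 libraries against 5039 for Lrrc55. Ackr2 (chromosome 9, 121898355 to 121911074), a decoy receptor that clears inflammatory chemokines, went from 107, 105, 83.2 and 117 CPM to 0.846, 0, 0.581 and 0.538 CPM (-7.64 ± 0.379, adjusted p = 8.23e-09). Madcam1, an addressin that binds lymphocyte integrins, averaged 16.6 ± 3.38 CPM (SD, n = 4) at P14 and 0.114 ± 0.16 CPM at P50. The remaining 9 of the 12 steepest falls had log2 fold changes of -5.24 to -4.48. They were the division genes Iqgap3, Pimreg and Top2a, the protease Adamts12, the decoy receptor Tnfrsf11b (osteoprotegerin), the superoxide-producing oxidase Nox4, the lipid kinase subunit Pik3cg, the carboxylesterase Ces2b and Apln, the ligand apelin. Pik3cg was the most even of them, at 22.8 to 28.4 CPM at P14 and 0.790 to 1.13 CPM at P50. Leaving out replicate 1 at P50, in which several of these genes kept their highest P50 level, made the falls of Madcam1, Iqgap3, Pimreg, Top2a, Tnfrsf11b, Nox4 and Apln steeper by over 1.5 times (-8.45, -6.58, -7.31, -5.47, -5.58, -5.74 and -5.37).

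Among the 12 largest rises under the same rule, Xdh (chromosome 17, 73883895 to 73950196), xanthine dehydrogenase of purine breakdown, came first. Its level was 14.1, 8.8, 12 and 6.11 CPM at P14 and 246, 216, 361 and 612 CPM at P50, so that the groups were far apart (5.12 ± 0.456, adjusted p = 1.4e-06). Fmo2 (chromosome 1, 162874317 to 162898726), a flavin-containing monooxygenase, rose from 2.12 ± 0.515 to 55.6 ± 31.3 CPM (SD, n = 4). Slfn2 rose from 0.841 ± 0.31 to 17.2 ± 5.49 CPM, and the interferon-inducible genes Ifit3, Ifit3b and Tgtp2 are described below with their list. Hspa1a, a heat shock protein, was at 24.1 to 63.8 CPM at P14 and 336 to 1110 CPM at P50. It belongs to the list of immediate early and dissociation genes described below, and the part of dissociation in its rise was not tested. Other genes of this set are known from other cells. Hapln2 and Plekhb1 are expressed by oligodendrocytes, Drc7 is a gene of motile cilia and Krt18 an epithelial keratin. Drc7 was at 0.109, 0.22, 3.97 and 2.81 CPM at P14 and 42.6, 54.8, 21.2 and 7.32 CPM at P50. The choroid plexus transcript Ttr followed the same order of replicates in part, at 129, 16.1, 3050 and 2070 CPM and at 16700, 42600, 6300 and 2100 CPM, and its part in these changes was not tested. Exoc3l2 was at 5.64, 4.83, 5.64 and 49.3 CPM at P50. Its log2 fold change of 4.08 fell to 2.48 without replicate 4 at P50, and that of Krt18 from 3.97 to 3.36 without replicate 2 at P50. Without replicate 3 at P14 the values were 4.90 for Hapln2, 4.86 for Drc7 and 4.94 for Krt18.

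**Figure D2:**
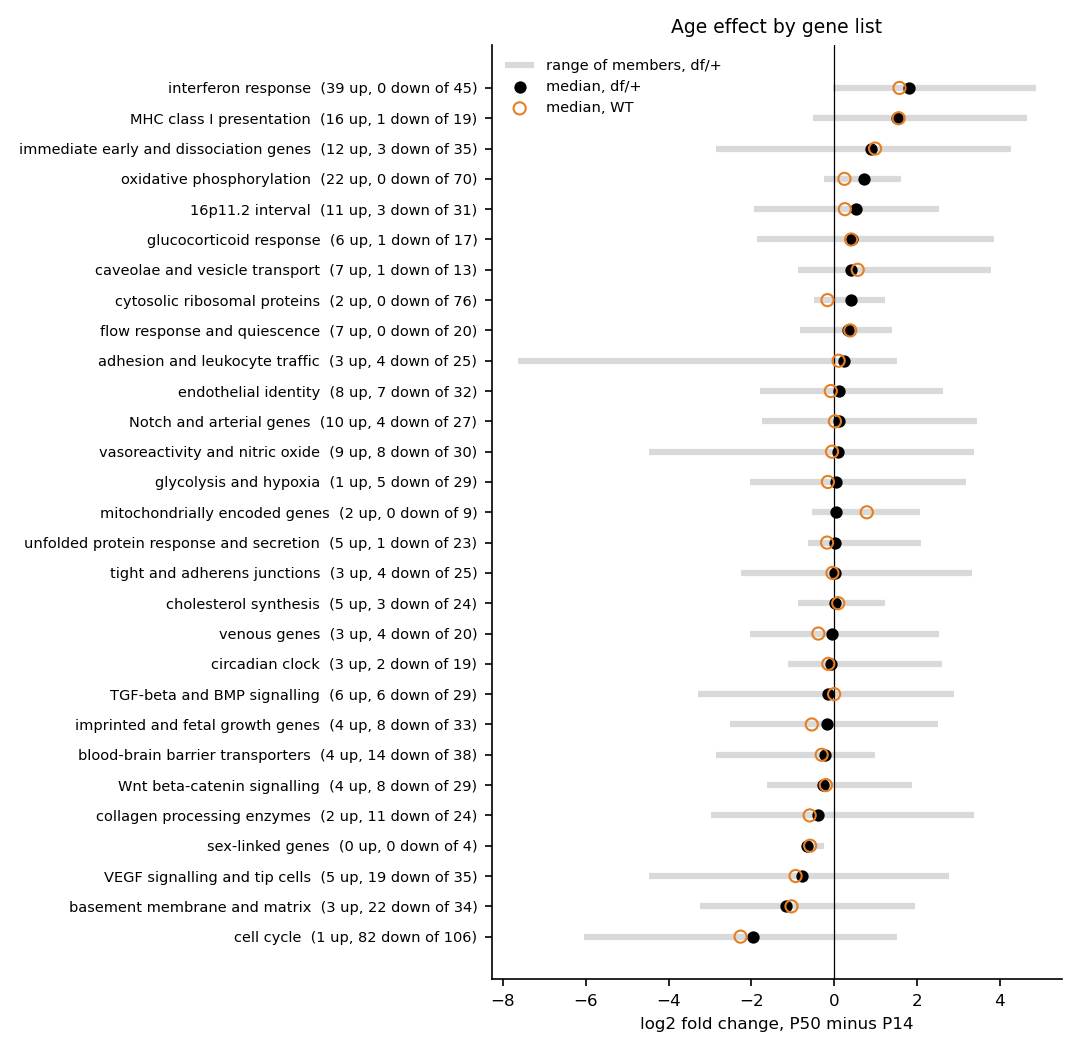
The plot by gene list gives for the endothelial, process and deleted-interval lists, without the marker lists of other cells, the median log2 fold change in df/+ (filled), the range of its members (bar) and the median in WT (open circle), with the members called higher and lower of those tested beside the list's name. Cell cycle (median -1.95) and interferon response (median 1.80) lie at the ends of the lists plotted.

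Genes of cell division fell together. Of 106 tested members of the cell cycle list, 82 were called lower and 1 higher, and the median log2 fold change was -1.95, against 12.7% lower and a median of 0.03 over all tested genes. All 9 mitotic cyclins and kinases examined as a sub-group fell, with a median of -3.96. Cdk1, the kinase that drives entry into mitosis, was at 33.7, 32.5, 28.7 and 39.9 CPM at P14. At P50 it was at 2.88, 2.66, 1.74 and 1.02 CPM (-4.02 ± 0.35, adjusted p = 1.13e-06). The kinase Melk, the spindle motor Kif11, the checkpoint kinase Bub1 and the topoisomerase Top2a led the list. Kif11 went from 4.78 to 7.21 CPM at P14 to 0 to 0.174 CPM at P50 (-5.67 ± 0.527). Bub1 was at 0.508 CPM in replicate 1 at P50 and at 0 to 0.0581 CPM in the other 3, and its log2 fold change of -5.22 became -7.69 without that library. The 6 condensin and chromosome structure genes were all called lower, of which Smc2 lost the call in 5 of the fits without 1 library (adjusted p = 0.0505 to 0.0793). Of the replicative helicase 3 of 6 subunits were called lower, with a median of -0.81. Mcm2 went from 26.1 to 36.2 CPM at P14 to 15.6 to 21.5 CPM at P50 (-0.84 ± 0.181), whereas Mcm7 was at 21.7 to 26.8 and 18.2 to 34.3 CPM and was not called. Mcm5 lost the call without replicate 2 or 4 at P14 or without replicate 2 at P50 (adjusted p = 0.0519, 0.0669 and 0.0521). Ccnd1, the D-type cyclin of the start of the cycle, was at 294, 259, 265 and 284 CPM at P14 and 46.8, 30.6, 47.7 and 46.2 CPM at P50. Its 2 paralogues moved less: Ccnd2 averaged 59.5 CPM and then 39.0 CPM, and Ccnd3 was not called. The single member called higher was Stmn1, a microtubule-destabilising protein also made by neurons, at 67.7 to 74.0 CPM at P14 and 83.2 to 216 CPM at P50. Without replicate 3 at P50 the fall of Melk was -7.31 in place of -6.04. Without replicate 2 at P50, 84 members of the cell cycle list were lower and 1 higher, and without replicate 1 or 4 at P50 or WT replicate 1 at P14, 2 were higher.

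The promoters of the division genes are shown because many members moved together. In RefSeq promoter windows (GRCm38.p6, from 250 bases before to 50 bases after the start), 86 list members and 11321 tested genes had an entry. The letters TTTGAA, the core of the cell cycle homology region, occurred on either strand in 43 of the 86 windows (50%) and in 14.3% of those of all tested genes. Among all genes called lower at P50 the share was 16.2%, and among those called higher 12.8%. CCAAT occurred in 70.9% of the list's windows and 42.4% of all. It was not particular to genes that fell. It occurred in 82.4% of the windows of the MHC class I list, described below, most of whose members rose. Among all genes called lower at P50 its share was 45%, and among those called higher 42.3%. Only genes with a match are shown, and no match was found for Bub1, Melk or Ccnb1. The stretches below run 5′ to 3′ on the gene's strand, with the match in capitals. They come from chr11:99024172-99024247 (minus strand), chr19:37376328-37376403 (plus), chr10:69352887-69352962 (minus) and chr9:70421510-70421585 (minus). Each match is a description of letters and not an occupied site.
Top2a: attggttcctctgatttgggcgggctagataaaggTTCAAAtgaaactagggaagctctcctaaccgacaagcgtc
Kif11: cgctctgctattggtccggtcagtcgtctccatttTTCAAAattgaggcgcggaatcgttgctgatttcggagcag
Cdk1: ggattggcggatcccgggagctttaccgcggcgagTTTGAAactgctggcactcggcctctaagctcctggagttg
Ccnb2: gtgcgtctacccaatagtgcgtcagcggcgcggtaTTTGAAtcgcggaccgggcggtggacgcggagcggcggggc

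Many transcripts of the basement membrane and matrix fell. Of 34 members 22 were called lower and 3 higher, with a median of -1.17, where 12.7% of all tested genes were lower and 16.7% higher. The laminin chain Lamb1 (chromosome 12, 31265234 to 31329644) had the smallest p of all tested genes. Its level was 598, 533, 534 and 572 CPM at P14 and 68.3, 56.6, 56.2 and 57.2 CPM at P50 (-3.23 ± 0.127, adjusted p = 7.17e-10). Laminin chains did not move as 1 unit. Lama4 and Lamc1, partners of Lamb1 in the laminin of capillaries, fell by 2.32 and 1.98 log2 units. Lama5, the chain of mature vessels, was at 459 to 578 CPM at P14 and 388 to 747 CPM at P50 and was not called. Lamb2 averaged 963 ± 70.7 and 1200 ± 127 CPM (SD, n = 4). It was called higher (0.31 ± 0.105, adjusted p = 0.0348), but the call was lost when any of 6 df/+ libraries was left out, with adjusted p of 0.0592 to 0.0999. All 4 type IV collagen chains tested fell. Col4a1 went from 7590, 5700, 6770 and 6210 CPM to 1860, 1040, 2230 and 2630 CPM (-1.76 ± 0.217), and Col4a5 lost its call without replicate 1 or 3 at P14 or replicate 1 at P50 (adjusted p = 0.0509, 0.0992 and 0.0512). Nidogens link the laminin and collagen networks. Nid1 fell from 1280 ± 64.6 to 180 ± 104 CPM and Nid2 from 580 ± 54.6 to 70.1 ± 32.1 CPM, with Nid2 overlapped on the other strand by Rtraf. The heparan sulphate proteoglycans Hspg2 (perlecan) and Agrn (agrin) fell by 1.13 and 0.98 log2 units.

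Of 24 tested members of the list of collagen processing enzymes, 11 were called lower and 2 higher, against 12.7% and 16.7% of all tested genes, and the other 11 were not called. Fkbp10, a collagen chaperone, was at 120 to 168 CPM at P14 and 13.5 to 24.1 CPM at P50. Pxdn, the peroxidase that cross-links type IV collagen, fell by 2.97 ± 0.334 and Loxl2, a lysyl oxidase, by 2.57 ± 0.257. Bmp1, the procollagen C-proteinase, was the most even, with 36.8, 41.0, 39.6 and 40.5 CPM at P50 against 80.7 to 106 CPM at P14. P4ha2, a prolyl hydroxylase subunit, went the other way, from 7.39, 7.26, 7.25 and 4.19 CPM to 43.8, 101, 51.0 and 72.8 CPM (3.37 ± 0.319, adjusted p = 2.66e-06). Pcolce was called higher but lost the call in 6 of the fits that left out a df/+ library, among them 0.77 without replicate 2 at P50 (adjusted p = 0.115). Of 5 metalloproteinases 3 were called lower, with Mmp14 and Adamts9 down by 1.70 and 2.11 log2 units. Of their inhibitors Timp1 fell by 2.06 (and -2.73 without replicate 1 at P50), Timp2 rose, and Timp3 was at 294, 113, 600 and 1120 CPM at P50 against 129 to 159 CPM at P14. Timp3 was called, yet its groups overlapped, and its log2 fold change of 1.96 became 1.3 without replicate 4 at P50.

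In the list of VEGF signalling and tip cells 19 of 35 members were called lower, against 12.7% of all tested genes, with a median of -0.77. The 5 called higher are a share near the 16.7% of all genes. Kdr, the main signalling receptor for VEGF, was at 2780, 2370, 2760 and 2840 CPM at P14 and 681, 438, 1120 and 886 CPM at P50 (-1.78 ± 0.241, adjusted p = 7.36e-05). Flt1, which binds VEGF as a decoy, moved in the opposite direction, from 2660, 2560, 2890 and 2520 CPM to 3360, 2960, 5820 and 5340 CPM (0.72 ± 0.202, adjusted p = 0.0153). No library of either gene crossed to the other age. The co-receptor Nrp1 fell by 0.97 ± 0.245, while Nrp2 and Flt4 were not called. Among the ligands, Vegfa was at 13 to 20.2 CPM at P14 and 12.5 to 17.5 CPM at P50 without a call, and Vegfb was called higher, from 14.7 ± 1.46 to 38.2 ± 18 CPM. The largest falls of the list were those of Apln, Aplnr, Fscn1 and Cxcr4. Apln, a ligand made by tip cells, was at 657, 702, 566 and 707 CPM at P14 and at 69.3, 19.4, 12.3 and 16.6 CPM at P50. Its receptor gene Aplnr went from 430 to 513 CPM to 13.4 to 31.5 CPM (-4.44 ± 0.335, adjusted p = 2.47e-07). The actin-bundling Fscn1 fell by 4.27 ± 0.356, the chemokine receptor gene Cxcr4 by 3.66 ± 0.413 and adrenomedullin (Adm) by 2.59 ± 0.208. Leaving out replicate 1 at P50 moved Apln to -5.37 and Cxcr4 to -4.31. Ramp3, a partner of the adrenomedullin receptor, was called higher, at 26.2, 54.1, 14.7 and 19.2 CPM at P50 against 3.41 to 4.89 CPM at P14.

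**Figure D3:**
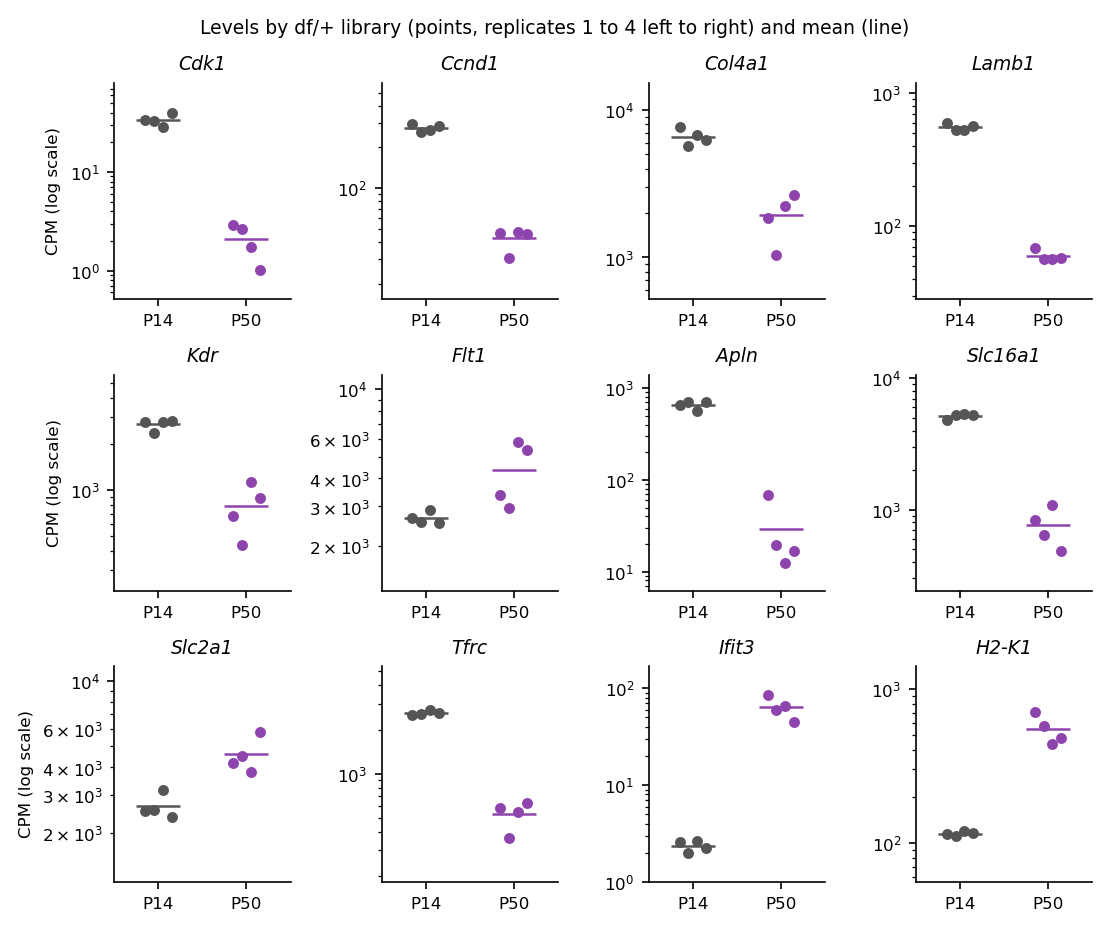
The plot of 12 genes by library gives CPM on a log axis for the 4 P14 (grey) and 4 P50 (purple) df/+ libraries, replicates 1 to 4 from left to right, with a line at the mean. Cdk1, Ccnd1, Col4a1, Lamb1, Kdr, Apln, Slc16a1 and Tfrc are lower in all 4 P50 libraries, and Flt1, Slc2a1, Ifit3 and H2-K1 are higher in all 4.

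Of 38 tested members of the blood-brain barrier transporters list, 14 were called lower and 4 higher, with a median of -0.21. Over all tested genes 12.7% were lower and 16.7% higher. In WT 8 of the 38 were called higher and 13 lower, with a median of -0.30. Slc16a1, the monocarboxylate carrier that takes up lactate and ketone bodies, was at 4830, 5270, 5350 and 5290 CPM at P14 and 826, 635, 1090 and 480 CPM at P50 (-2.78 ± 0.216, adjusted p = 3.44e-07). Slc2a1, the glucose carrier, was at 2530, 2550, 3140 and 2380 CPM at P14 and 4190, 4530, 3800 and 5830 CPM at P50 (0.79 ± 0.167, adjusted p = 0.00267). For both carriers the ages did not overlap. The carrier for large neutral amino acids Slc7a5 fell by 0.98 ± 0.127 and the cationic carrier Slc7a1 by 1.19 ± 0.252, whereas Slc3a2, the heavy chain that pairs with Slc7a5, was at 1200 to 1350 CPM and 981 to 1370 CPM and was not called. Of 5 genes of iron and zinc handling 3 fell: the transferrin receptor Tfrc went from 2530, 2540, 2710 and 2610 CPM to 581, 363, 549 and 632 CPM (-2.29 ± 0.367, adjusted p = 0.000307), the iron exporter Slc40a1 fell by 1.26 ± 0.179, and the metal carrier Slc39a8 by 1.84 ± 0.231. Abca1, a cholesterol exporter, was at 348 to 430 CPM at P14 and 25.6, 6.44, 89.9 and 95.2 CPM at P50. Of 5 efflux pumps only Abcg2 was called, higher by 0.72 ± 0.15, and the P-glycoprotein gene Abcb1a was at 1220 to 1560 CPM and 986 to 2370 CPM. The glutamate carrier Slc1a1 was called higher from 117 ± 11 to 173 ± 22.1 CPM (SD, n = 4). Atp10a was called higher as well, with overlapping groups, and lost the call without replicate 2 or 4 at P14 (adjusted p = 0.0552 and 0.052).

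Of 25 members of the list of tight and adherens junctions 3 were higher and 4 lower, with a median of 0.02. Both shares and the median were near those of all tested genes (16.7%, 12.7% and 0.03). Cldn5, the claudin of brain endothelium, was at 3270 to 3610 CPM at P14. At P50 it was at 6540, 13400, 3120 and 2610 CPM, and the difference was not called (0.88 ± 0.374, adjusted p = 0.0873). Without replicate 2 at P50 the value of Cldn5 was 0.21 (adjusted p = 0.587), and it was called higher without replicate 3 or 4 at P50, at 1.11 and 1.14 (adjusted p = 0.0259 and 0.0167). The clearest fall was that of Cdh2, the N-cadherin of contacts with pericytes, from 140 ± 8.9 to 29.4 ± 16.6 CPM. Nectin2 fell by 1.24 ± 0.281, whereas Magi1 and Cldn12 lost their call in 4 and 5 of the fits without 1 df/+ library, without replicate 1 at P50 for instance at adjusted p = 0.0781 and 0.0654. The 3 called higher were Tjp3, Marveld3 and Cgn, genes of epithelial tight junctions. Tjp3 was at 0.0543, 0, 1.39 and 1.17 CPM at P14 and 8.4, 13.2, 3.72 and 2.26 CPM at P50, with Ttr at 129, 16.1, 3050 and 2070 CPM and at 16700, 42600, 6300 and 2100 CPM in the same libraries. What choroid plexus RNA contributed to these 3 genes was not tested, and Apba3 overlaps Tjp3 with 6705 reads against 482. Without replicate 3 at P14 Tjp3 was higher by 3.99 and Cgn by 3.76. The junction list had 2 members lower without replicate 2, 3 or 4 at P14 or replicate 1 at P50, and 5 in each direction without replicate 3 or 4 at P50.

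Of 13 tested genes of caveolae and vesicle transport 7 were called higher and 1 lower, beside 16.7% and 12.7% of all tested genes. Ehd2, an ATPase at the neck of caveolae, was at 236, 224, 234 and 219 CPM at P14 and 399, 399, 369 and 347 CPM at P50 (0.73 ± 0.106, adjusted p = 0.000133). Cavin3, a coat protein of caveolae, rose by 0.99 ± 0.243 and Pacsin3 by 2.14 ± 0.304. The member called lower was Mfsd2a, a lipid carrier that restrains transcytosis at the barrier, which went from 1340, 1200, 1140 and 1330 CPM to 699, 914, 566 and 548 CPM (-0.88 ± 0.163, adjusted p = 0.00102). Plvap, the diaphragm protein of fenestrated vessels, was at 25.4, 28.5, 38.3 and 245 CPM at P50 and 0.55 to 13.5 CPM at P14. Its log2 fold change was 3.79 in all and 2.34 without replicate 4 at P50, the library in which Exoc3l2 was also far above the others. Without replicate 3 at P14 the value of Plvap was 4.55. Gtpbp3 overlaps Plvap on the other strand. Without replicate 3 at P50 the list had 6 members higher and 2 lower.

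In the Wnt beta-catenin signalling list 8 of 29 members were called lower and 4 higher, with a median of -0.26, beside 12.7% lower and 16.7% higher over all tested genes. Apcdd1, a Wnt target and inhibitor of brain endothelium, went from 3890, 3300, 3520 and 3910 CPM to 1380, 769, 1480 and 1150 CPM (-1.61 ± 0.204, adjusted p = 3.74e-05). The transcription factor Lef1 and the feedback gene Axin2 were called in the other direction, Lef1 from 103 ± 6.34 to 161 ± 17.8 CPM and Axin2 from 111 ± 8 to 155 ± 9.27 CPM. Axin2 missed the threshold without replicate 2 at P14 or replicate 1 at P50 (adjusted p = 0.0573 and 0.0548). Tcf7l2, a transcription factor of the same family as Lef1, fell by 1.02 ± 0.182. Ctnnb1 itself was at 1440 to 1500 CPM at P14 and 1170, 608, 1550 and 1480 CPM at P50. Of 7 receptor and co-receptor genes Reck was called higher and Fzd6 lower. Fzd6 lost the call without any 1 of the 4 P14 df/+ libraries or without replicate 1 at P50 (adjusted p = 0.0688 to 0.0918), and without 5 of the WT libraries.

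Of 27 members of the Notch and arterial genes list 10 were called higher and 4 lower, beside 16.7% and 12.7% of all tested genes. Alpl, alkaline phosphatase, was at 17.2, 23, 23.8 and 17.6 CPM at P14 and 249, 246, 201 and 201 CPM at P50 (3.46 ± 0.199, adjusted p = 2.04e-08). Efnb1, a membrane ephrin, rose by 1.38 ± 0.194 and Gkn3, a marker of brain arteries, from 17 ± 3.63 to 63.8 ± 35.9 CPM (SD, n = 4). Clu was at 1010, 1300, 403 and 318 CPM at P50, and is also strongly expressed by choroid plexus and astrocytes. Both Notch receptors tested, Notch1 and Notch4, were not called. Of the ligands Jag2 rose by 0.47 ± 0.104 and Dll4, a tip cell ligand, went from 270, 243, 222 and 260 CPM to 163, 147, 147 and 127 CPM (-0.77 ± 0.124). The Notch target Heyl fell by 0.67 ± 0.156 and the elastic fibre protein Fbln5 by 1.74 ± 0.291. Of 20 venous genes 3 were called higher and 4 lower, counts that ranged from 2 to 5 in each direction when 1 df/+ library was left out and that are near the shares of all tested genes, 16.7% and 12.7%. Lrg1 was at 1.17 to 2.09 CPM at P14 and 8.07 to 11.3 CPM at P50, and Vwf, von Willebrand factor, fell from 1630 ± 156 to 907 ± 93.2 CPM.

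In the list of flow response and quiescence 7 of 20 genes rose and 0 fell, beside 16.7% and 12.7% of all tested genes. Klf2 was at 598, 484, 624 and 584 CPM at P14 and 1650, 2050, 1010 and 1230 CPM at P50 (1.37 ± 0.231, adjusted p = 0.000469). Klf4 rose from 388 ± 47.6 to 779 ± 205 CPM, and thrombomodulin (Thbd), an anticoagulant surface protein, from 203 ± 21.8 to 535 ± 147 CPM. Nos3, the endothelial nitric oxide synthase, was at 405 to 429 CPM at P14 and 384 to 594 CPM at P50 and was not called. Without replicate 2 or replicate 4 at P50 the count was 6 higher and 1 lower. The cell suspensions were made by dissociation, which is known to induce Klf2, Klf4 and other immediate early genes. Of 35 tested immediate early and dissociation genes 12 were called higher and 3 lower, beside 16.7% and 12.7% of all tested genes. Their summed level was 5210 to 6450 CPM at P14 and 7060 to 15600 CPM at P50. The part of dissociation in the rise of Klf2 and Klf4 was not tested. Without replicate 2 at P14 or replicate 1 at P50 the list of immediate early and dissociation genes had 6 and 7 members higher.

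In the list of vasoreactivity and nitric oxide 9 of 30 members were higher and 8 lower, beside 16.7% and 12.7% of all tested genes. The nucleotide receptor genes P2ry1 and P2ry2 rose by 3.06 ± 0.33 and 2.32 ± 0.443, with P2ry1 at 0.824 to 1.53 CPM and then 5.88 to 13.4 CPM. Trpv4 and Ptgds, which choroid plexus and meninges also express, were called higher too. Ptgds was at 486, 864, 112 and 214 CPM at P50, and its log2 fold change of 3.37 became 2.72 without replicate 2 at P50. Kcnj2, the inward rectifier channel by which capillaries sense potassium, fell from 37 ± 5.9 to 11 ± 5.83 CPM. Among genes of TGF-beta and BMP signalling 6 of 29 rose and 6 fell, 3 without replicate 4 at P14, beside 16.7% and 12.7% of all tested genes. The BMP targets Id1 and Id3 rose by 1.35 ± 0.254 and 1.11 ± 0.223 and the BMP antagonist Nog from 1.15 ± 0.805 to 8.14 ± 0.753 CPM. Smad3, a mediator of TGF-beta signalling, fell by 1.1 ± 0.216. In the list of adhesion and leukocyte traffic 3 of 25 members were called higher and 4 lower, with a median of 0.23. Both shares were near the 16.7% and 12.7% of all tested genes. Cx3cl1 (fractalkine) rose from 54.9 ± 6.99 to 156 ± 22.9 CPM and Vcam1 from 45 ± 3.29 to 121 ± 75 CPM. The falls were led by Ackr2 and Madcam1. Within the endothelial identity list 8 of 32 members were higher and 7 lower, beside 16.7% and 12.7% of all tested genes. Ly6a was at 245 to 311 CPM at P14 and 1900, 2320, 1300 and 1310 CPM at P50 (2.63 ± 0.208, adjusted p = 3.9e-07), and Ly6c1 rose by 1.26 ± 0.168. Without replicate 1, 2 or 4 at P14 the endothelial identity counts were 5 higher and 6 lower.

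Interferon response genes rose together. Of 45 tested members 39 were called higher and 0 lower, with a median of 1.80, against 16.7% of all tested genes. Interferons act through Stat2 and the interferon regulatory factors to induce antiviral proteins, and brain endothelium is known to respond to them. All 5 signalling factors rose: Irf7 went from 31.9, 26.3, 31.4 and 24.4 CPM to 184, 166, 129 and 94.7 CPM (2.33 ± 0.241) and Irf9 rose by 0.96 ± 0.124. Ifit3, which binds viral RNA complexes, was at 2.61, 1.98, 2.65 and 2.26 CPM at P14 and 84.8, 59.1, 66.3 and 45.2 CPM at P50 (4.73 ± 0.268, adjusted p = 1.91e-08). Ifit3b is a near-identical neighbour, so reads may be split between them, and it rose by 4.88 ± 0.429. Ifit1 rose by 3.49 ± 0.349 and Rsad2 (viperin), an inhibitor of viral replication, was at 2.93, 3.3, 5.65 and 3.23 CPM and then 27.3, 15.6, 59.8 and 62.5 CPM. The 3 tested oligoadenylate synthetases rose, as did 8 of 9 guanylate-binding and immunity-related GTPases. Tgtp2, another such GTPase, was at 0.206 to 0.55 CPM at P14 and 18.2, 1.96, 14.5 and 8.23 CPM at P50, with copies of similar sequence that may share its reads. For Gbp7, the exception, the P50 values of 39.7, 18.8, 127 and 94.6 CPM overlapped those of P14. Without replicate 2 at P50, 40 members were higher.

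Most genes of antigen presentation by MHC class I rose as well. Of 19 members of the MHC class I presentation list 16 were called higher and 1 lower, with a median of 1.53. Over all tested genes 16.7% were higher and 12.7% lower. The heavy chain gene H2-K1 (chromosome 17, 33996017 to 34000347) was at 114, 111, 119 and 116 CPM at P14 and 701, 575, 436 and 476 CPM at P50 (2.25 ± 0.407, adjusted p = 0.000823). The light chain gene B2m rose by 1.42 ± 0.287 and the peptide transporter subunits Tap1 and Tap2 by 1.29 ± 0.287 and 1.7 ± 0.21. Immunoproteasome subunits, which cut peptides for MHC class I, rose as well: Psmb8 went from 7.65 ± 0.96 to 62.7 ± 36.4 CPM and Psmb9 from 6.66 to 34.4 CPM on average. H2-Q6 and H2-Q7, which are near-identical copies, had log2 fold changes of 4.47 and 4.67 with an SE of 1.46 and 1.5. Both lost the call without any 1 of the 4 P14 df/+ libraries or without replicate 1 at P50 (adjusted p = 0.0572 to 0.082). The member called lower was Pdia3, a chaperone of the endoplasmic reticulum, from 638 ± 26.7 to 446 ± 40.5 CPM. Of 20 microglia markers 3 were called lower, a share near the 12.7% of all tested genes, and 0 higher, with a summed level of 208 to 294 CPM at P14 and 88.0 to 209 CPM at P50. Of 17 lymphocyte and neutrophil markers 5 could be tested, the summed level of these 5 was 5.30 to 6.41 CPM and 0.840 to 6.32 CPM, and Ly6g and Mpo had 0 reads at both ages. The part of immune cell RNA in the MHC class I values was not tested.

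Promoter windows of the interferon genes are shown for the same reason as those of the division genes. The letters GAAANNGAA, the half-pair of an interferon-stimulated element, occurred on either strand in 22 of 31 interferon response windows (71%), in 4 of 17 MHC class I windows (23.5%) and in 8.61% of all tested genes. Among all genes called higher at P50 the share was 10.1%, and among those called lower 7.51%. Only genes with a match are shown, and no match was found for Psmb8. Capitals mark the matches, which can overlap each other. The stretches come from chr19:34583392-34583470, chr19:34640770-34640848 (both plus strand), chr12:26456528-26456606 and chr11:49064239-49064317 (both minus strand). The Ifit3b window is identical to that of Ifit3.
Ifit3: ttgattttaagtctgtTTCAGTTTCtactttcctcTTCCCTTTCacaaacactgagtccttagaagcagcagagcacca
Ifit1: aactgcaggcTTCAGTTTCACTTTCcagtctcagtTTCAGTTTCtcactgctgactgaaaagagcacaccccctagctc
Rsad2: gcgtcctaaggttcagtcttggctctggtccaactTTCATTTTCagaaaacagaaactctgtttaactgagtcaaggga
Tgtp2: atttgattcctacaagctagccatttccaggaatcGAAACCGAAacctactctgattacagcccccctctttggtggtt

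The calls among genes of oxidative phosphorylation, the nuclear-encoded subunits of the respiratory chain, changed with single libraries. Of 70 members 22 were called higher and 0 lower, with a median of 0.73, beside 16.7%, 12.7% and 0.03 over all tested genes. Atp5e was at 72.9 to 97.6 CPM at P14 and 213, 641, 69.3 and 77.1 CPM at P50, so replicates 3 and 4 at P50 lay at the level of P14. It lost the call without any 1 of the 4 P14 libraries or replicate 1 or 2 at P50 (adjusted p = 0.0528 to 0.3). Without replicate 2 at P50, 1 member was called higher and the median was 0.24. Leaving out replicate 1, 2, 3 or 4 at P14 left 9, 2, 4 and 3 members higher, and leaving out replicate 1 at P50 left 5. Without replicate 3 or 4 at P50, 44 and 46 were higher. The list's summed level was 17700 CPM in replicate 2 at P50, 10600 CPM in replicate 1, and 5320 and 5440 CPM in replicates 3 and 4, against 5730 to 6690 CPM at P14. Of cytosolic ribosomal proteins 2 of 76 were called higher, with a median of 0.40 that became -0.06 without replicate 2, and their summed level was 32800, 55500, 14000 and 17200 CPM at P50. Over all tested genes the median log2 fold change was 0.18 for genes with the shortest transcripts and -0.14 for those with the longest, the first and last of 4 groups by length.

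The heat shock genes Hspa1a and Hspa1b, near-identical copies, rose by 4.27 ± 0.505 and 3.68 ± 0.481, and the growth factor-induced gene Myc fell from 13.6 ± 3.75 to 1.86 ± 0.627 CPM. Hspa1a, Hspa1b and Myc are members of the list of immediate early and dissociation genes, and the part of dissociation in their changes was not tested. In the glucocorticoid response list 6 of 17 members rose and 1 fell, beside 16.7% and 12.7% of all tested genes. Map3k6 was at 43.3, 63.5, 99.5 and 258 CPM at P50, and its log2 fold change of 2.37 was 1.61 without replicate 4 at P50. The metallothionein Mt1 rose by 1.83 ± 0.42 and Angptl4, an inhibitor of lipoprotein lipase, fell by 1.86 ± 0.221. Of 19 circadian clock genes 3 were higher and 2 lower, shares near those of all tested genes (16.7% and 12.7%). Arntl, which encodes the clock activator BMAL1, went from 18.6, 19.9, 24.6 and 25 CPM to 53.2, 30.6, 91.0 and 64.4 CPM, while Per3 fell by 1.11 ± 0.288 and Tef by 0.86 ± 0.194. The labels do not state the hour of dissection. Trib3, a stress-response pseudokinase, rose from 3.1 ± 0.54 to 13.3 ± 3.08 CPM. In its list, the unfolded protein response and secretion, 5 of 23 were higher and 1 lower, beside 16.7% and 12.7% of all tested genes. The lower count was 4 and 2 without replicate 3 or 4 at P50. Ndrg1, a hypoxia- and differentiation-associated gene also abundant in oligodendrocytes, was at 90.8 to 141 CPM and 832, 872, 839 and 1340 CPM. It was the 1 member of the glycolysis and hypoxia list called higher, where 16.7% of all tested genes were higher. Of the list's 29 members 5 were lower, beside 12.7% of all tested genes. Among these 5 was the glycolytic activator Pfkfb3 (-1.72 ± 0.231), which fell in every fit without 1 library. The lower count of that list was 2 without replicate 2 or 4 at P14 and 3 without replicate 3, and the higher count was 3 or 4 without replicate 3 or 4 at P50. Of 24 genes of cholesterol synthesis 5 were higher and 3 lower, near the 16.7% and 12.7% of all tested genes. The cholesterol counts dropped to 2 and 1 without replicate 2 at P14. They were 3 and 1 without replicate 1, 3 or 4 at P14 or replicate 2 at P50. They were 4 and 1 without df/+ replicate 1 at P50 or WT replicate 2 or 3 at P14. The mitochondrial ribosomal RNAs mt-Rnr1 and mt-Rnr2 were the 2 of 9 mitochondrially encoded genes called, both higher, beside 16.7% of all tested genes. Levels of mt-Rnr1 were 318 to 612 CPM at P14 and 1010 to 2030 CPM at P50. Of 33 imprinted and fetal growth genes 8 were lower and 4 higher, beside 12.7% and 16.7% of all tested genes. H19, a fetal non-coding RNA, was at 1.37 to 2.72 CPM at P14 and 0 to 0.465 CPM at P50. The transcription factor Sox4 fell by 2.12 ± 0.333. Without replicate 2 at P14 the imprinted and fetal growth list had 7 lower and 2 higher.

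Genes listed for the deleted interval were taken to be present in 1 copy at both ages. For those inside the deletion a change with age is a change from a single allele. The limits of the deletion and the copy number of each listed gene, Zfp771 among them, were not tested. Of 31 tested genes 11 were called higher and 3 lower, beside 16.7% and 12.7% of all tested genes, with a median of 0.52 that was 0.21 without replicate 2 at P50. Between 7 and 9 were higher and 1 to 2 lower when a P14 df/+ library was left out. The interval's summed level was 1410, 1980, 1000 and 1030 CPM at P50 against 923 to 1050 CPM at P14. Replicates 3 and 4 at P50 thus lay at the level of P14. In WT 8 of these genes were called higher and 3 lower, with a median of 0.26, and 0 had an unadjusted interaction p under 0.05 in edgeR. Sez6l2, a neuronal surface protein gene, was at 6.08, 3.19, 3.63 and 2.68 CPM at P14 and 30.0, 28.1, 9.3 and 24.5 CPM at P50 (2.54 ± 0.352, adjusted p = 8.74e-05). Mvp, the major vault protein, was at 25.4, 21.8, 23 and 21.5 CPM and then 62.4, 98.3, 44.7 and 49.0 CPM (1.47 ± 0.212). Kif22, a mitotic kinesin, fell with the other division genes, from 7.56 ± 1.02 to 1.97 ± 0.631 CPM. Gdpd3 and Zfp771 were called higher, Gdpd3 by 2.29 and by 2.94 without replicate 2 at P14. Zfp771 was at 57.0, 122, 23.7 and 22.5 CPM at P50, and its log2 fold change of 1.81 became 1.08 without replicate 2. Mapk3, the kinase ERK1, averaged 148 ± 9.05 and 215 ± 63.8 CPM and lost the call in 5 of the fits without a df/+ library, without replicate 2 at P50 at adjusted p = 0.0963. Taok2 averaged 147 ± 7.2 and 116 ± 21 CPM and lost its call in 6 of them, with adjusted p of 0.0704 to 0.114.

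Markers of other cells were followed because the bead selection leaves a remainder of them. Their counts stand beside 16.7% higher and 12.7% lower over all tested genes. Ependymal and choroid plexus markers were called higher for 12 of 14 genes, with a median of 2.90. Their leading transcript Ttr lost the call without replicate 1, 2 or 4 at P14 or replicate 1 or 2 at P50 (adjusted p = 0.0512 to 0.111). Kl, another choroid plexus gene, was at 2.34, 0.99, 38.6 and 19.3 CPM at P14 and 157, 130, 152 and 50.7 CPM at P50, a log2 fold change of 2.99 that was 3.99 without replicate 3 at P14. Of 17 oligodendrocyte markers 6 were higher, with Mbp, myelin basic protein, at 2580, 1390, 2360 and 629 CPM and then 15200, 11000, 6000 and 13300 CPM. Precursor markers went down, with 7 of 13 lower, and Tnr fell from 36.6 ± 18.2 to 3.28 ± 0.882 CPM. Smooth muscle markers rose in 8 of 13, at a summed level of 406 to 474 CPM and then 708 to 1030 CPM, and Myl9 went from 150 ± 25.5 to 327 ± 137 CPM. Pericyte markers were at a summed level of 4710 to 5940 CPM and then 4680 to 6050 CPM. They had 3 of 15 called in each direction, near the shares of all tested genes. Vtn was higher by 1.24 ± 0.244 and Cspg4 lower by 0.58 ± 0.127. Of 15 fibroblast markers 5 were lower and 2 higher, and Col3a1 fell from 108 ± 11 to 20.6 ± 5.99 CPM. Of 17 astrocyte markers 5 were lower, including Gja1 (-1.68 ± 0.237), and 1, S100b, was higher. Of 10 perivascular macrophage markers 5 were lower and 0 higher, 3 without replicate 3 at P14. Stab1 among them is also made by endothelial cells and fell by 1.26 ± 0.15. Counts of the small marker lists moved with single libraries: pericyte markers to 1 or 2 higher without a P14 df/+ library and to 6 lower without replicate 4 at P50, fibroblast and astrocyte markers to 3 lower without replicate 2 at P14, and microglia markers to 7 lower without WT replicate 1 at P14. What these cells contributed to the age effect of other genes was not tested.

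**Figure D4:**
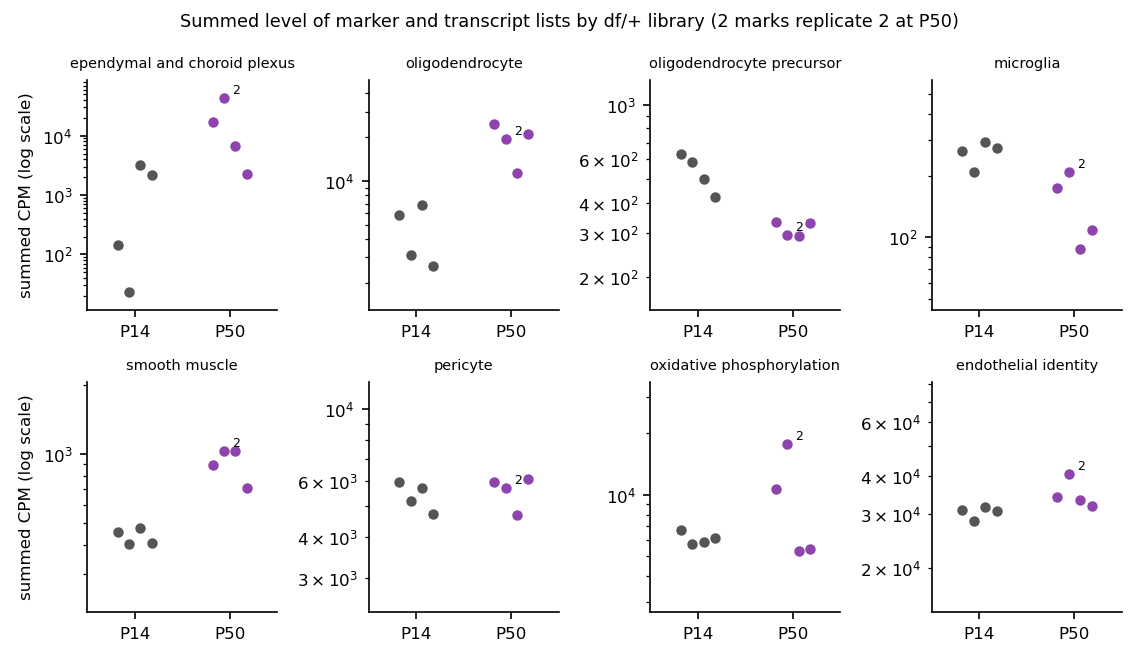
The plot of marker and transcript lists gives the summed CPM on a log axis for each df/+ library, P14 in grey and P50 in purple, replicates 1 to 4 from left to right and with 2 marking replicate 2 at P50. Ependymal and choroid plexus markers span 23 to 3180 CPM at P14 and 2230 to 43400 CPM at P50, and replicate 2 at P50 has the highest level of oxidative phosphorylation genes, 17700 CPM.

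WT littermates were used to ask whether ageing from P14 to P50 differed with the deletion. In WT 2013 genes rose (13.1%) and 1852 fell (12.1%). The test of the difference, age effect in df/+ minus age effect in WT, called 0 genes in edgeR, DESeq2 and limma-voom alike. At an unadjusted p under 0.05 the methods differed, with 305 genes (1.98%) in edgeR, 425 in DESeq2 and 1378 in limma-voom. If no gene differed, a fraction of about 0.05 of the tested genes would fall under that threshold, and the edgeR share was smaller. Of the 4512 genes called in df/+, 4476 (99.2%) had the same sign in WT, and no gene was called in opposite directions. Of the rises in df/+ 1588 were also called in WT, which is 62.0% of the df/+ list and 78.9% of the WT list, and of the falls 1501, 76.9% and 81.0%. List medians in WT were -2.26 for the cell cycle, -1.03 for the basement membrane, 1.58 for the interferon response and 1.56 for MHC class I. Kdr changed by -1.52 in WT, Slc16a1 by -2.88, Lamb1 by -3.66, Xdh by 5.81 and Ifit3 by 4.33. The 5 list medians farthest apart were those of perivascular macrophage (-1.38 in df/+, -0.12 in WT), neuron (0.00 and 1.15), microglia (-0.90 and 0.20) and lymphocyte and neutrophil markers (-0.61 and 0.27) and of mitochondrially encoded genes (0.05 and 0.79). In these 1, 3, 0, 1 and 1 members had an unadjusted interaction p under 0.05 in edgeR. The mean log2 CPM of microglia markers at P14 was 2.92, 0.85, 0.72 and 0.27 in WT and 2.63 to 3.13 in df/+. At P50 it was 1.17 to 1.98 in WT and 1.41 to 2.32 in df/+. For perivascular macrophage markers the P14 values were 3.14, 1.27, 0.88 and 0.62 in WT and 2.86 to 3.51 in df/+. What uneven carry-over of these cells at P14 contributed to the medians was not tested. Oxidative phosphorylation had medians of 0.73 and 0.25, with 22 members called higher in df/+, 0 in WT and 0 at that interaction p. Without df/+ replicate 1 at P14 the neuron median in df/+ was 0.51, with 4 of 19 genes higher and 0 lower. A missed threshold does not show that the genotypes aged alike. For Kdr the df/+ minus WT difference, -0.26 ± 0.33 (SE), had a larger error than the age effect in df/+ (0.241) or in WT (0.239).

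**Figure D5:**
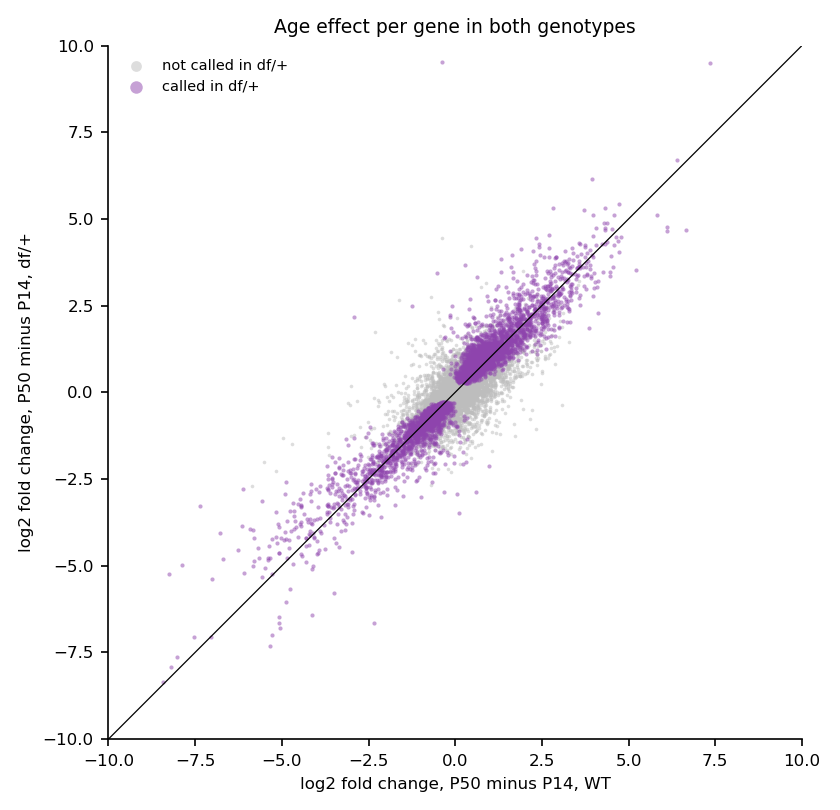
The plot of both genotypes gives the log2 fold change from P14 to P50 in WT on the horizontal axis and in df/+ on the vertical axis for the 15368 tested genes, with genes called in df/+ in purple and a line of equal change. Nearly all called genes lie in the quadrants of equal sign, 4476 of 4512.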

How the data were processed

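Gene counts per Ensembl ID were deposited by the authors as raw read counts for 16 libraries, each made with a stranded mRNA kit from the pooled cells of 2 mice. The submitters' processing notes name STAR 2.5.3a, the genome build GRCm38.p5 and DESeq2. How reads were counted, and with which strand setting, is not stated there, so genes that overlap on opposite strands are uncertain. Mapping rates were deposited as a fraction of the input reads, per the file headers, and are given here in percent.

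Of 52636 IDs, 52489 matched a symbol in GENCODE M21. Genes with enough reads under filterByExpr (minimum count 10) were kept, 15368 that held 99.6% or more of each library's counts. edgeR 4.0.16 in R 4.3.3 was fitted to all 16 libraries with 4 group means and TMM scaling (12 residual degrees of freedom, biological coefficient of variation 29.1%), and its quasi-likelihood F test, two-sided, was adjusted by Benjamini-Hochberg over all tested genes. Library totals limit the precision of genes with few reads. The script was tested on simulated data.

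Genes named were the 12 largest rises and 12 largest falls with at least 10 CPM and no overlap, up to 4 called members per direction of each list, the leading markers and 8 fixed genes; some of these are not reported here. Role sub-groups within lists were formed with the lists' totals known. The members and lists were chosen with earlier results of these data known. Alternatives were other scalings, filters and tests (DESeq2 1.42.0, limma 3.58.1), a fit to the 8 df/+ libraries, a replicate block and leaving out single libraries. Promoters are RefSeq sequences of GRCm38.p6. The authors' table of normalised values was not used.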

Additional observations from a re-analysis of the deposited data

Results flagged for a closer look

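Within the 4 libraries of an age, 32 of 522 tests found 1 library far from the other 3 by Dixon's criterion, and chance gives about 1 in 20.

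At P14, replicate 1 stood apart for Slc16a1 (4830 CPM against 5270 to 5350), Unc5b (482), Ptgds (80.0), Ccl2 (1.79), and the mean log2 CPM of the 16p11.2 interval list (3.56) and the pericyte list (7.34). Replicate 2 stood apart for Mylk (111 CPM) and the venous list (5.24). Replicate 3 did so for Bmp6 (9.13 CPM), Timp3 (159), Bmp1 (80.7) and Rsad2 (5.65), and replicate 4 for Top2a (45.9), Slc38a5 (662), P4ha2 (4.19) and Ifit1 (3.50).

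At P50, replicate 1 was high for Apln (69.3 CPM against 12.3 to 19.4), Pimreg (1.07), Lamb1 (68.3), Bub1 (0.508), Igf2bp1 (0.338), Cd79a (2.31), the MHC class I list (mean log2 CPM 6.98) and the astrocyte list (5.88), and low for Pik3cg (0.790 CPM). Replicate 4 was high for Exoc3l2 (49.3 CPM against 4.83 to 5.64), Plvap (245 against 25.4 to 38.3), Dlk1 (8.02) and Ndrg1 (1340). Replicate 2 was high for Sdf2l1 (32.8 CPM) and low for the Wnt list (mean log2 CPM 5.53) and the mitochondrially encoded list (10.17).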

How the results depend on the processing

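The counts of genes higher and lower at P50, 2561 and 1951, stayed within 1.5 times of these values under other scalings, filters and tests. They were 1267 and 1150 in a fit to the 8 df/+ libraries and 1430 and 970 with a log2 fold change of at least 1 required. Without 1 df/+ library they ranged from 1774 to 3195 and from 1495 to 2382. limma-voom called 2697 higher and 2650 lower. The test of the difference between genotypes called 0 genes in every alternative in which it could be run. It has no value in the fit to the 8 df/+ libraries. With the replicate number as a block the counts were 2216 and 1977. Same-numbered df/+ libraries deviated with correlations of 0.220, -0.140, 0.0596 and -0.109, too few values to show whether the numbers mark pairs. The numbers follow the sample titles, and the column labels of the P14 df/+ libraries are numbered otherwise. Of 208 called genes among the 224 named, 77 lost the call in at least 1 of 26 settings and 0 reversed while called. Genes not called changed sign: under upper-quartile scaling Igf2 (0.00), Camk2a (0.01) and Cspg5 (0.03), in limma-voom Cd79a (-0.08), Hbb-bs (-0.27), Hba-a1 (-0.26), Cdh5 (0.04), Cldn5 (-0.17) and Nos3 (-0.03), and with the trends on length and GC removed Cspg5 (0.05). Over the fits without 1 library the log2 fold change ranged from -0.01 to 0.38 for Mylk, -0.34 to 0.21 for Igf2, -0.58 to 0.28 for Camk2a, -0.24 to 0.14 for Cspg5 and -0.32 to 0.65 for Cd79a. The cause was not tested. The length and GC correction and the omission of WT libraries were chosen after seeing the data.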

Other observations

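Cyp2e1, a cytochrome P450, was chosen after its values were seen. It was at 0 CPM in all 4 P14 df/+ libraries and at 5.02, 11, 4.54 and 3.07 CPM at P50 (adjusted p = 3.84e-05).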
